A study of Mus musculus with 24 samples.

Results

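The clustered protocadherin genes are 57 protein-coding genes on mouse chromosome 18, of 21883 protein-coding genes in the annotation. They were chosen by symbol and position alone, as the RefSeq genes of the mm10 build whose symbols begin with Pcdha, Pcdhb or Pcdhg. The 14 alpha genes lie between 36930285 and 37188897, the 22 beta genes between 37264998 and 37521419, and the 21 gamma genes between 37661775 and 37841873. With 1000 bp added on either side the cluster spans 36929285 to 37842873, or 914 kb. That is 1.04% of the 87.6 Mb between the lowest and highest summits on chromosome 18, which was used as its length. The 16 peak lists together placed 275 summits in the cluster, 105 of Sox9 and 170 of H3K4me3, of 18192 on chromosome 18 and 576322 on chromosomes 1 to 19, X and Y.

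Clustered protocadherins are cell surface proteins of the cadherin superfamily, best known in the brain, where each neuron uses a few of them and so carries a surface code for telling its own branches from those of others. Each alpha and gamma gene has its own promoter and a large first exon for the outer and membrane-spanning parts of the protein, joined to shared small exons for the inner end, whereas each beta gene is a single exon. In neurons, promoter choice depends on DNA methylation, the insulator protein CTCF, cohesin and distant enhancers. The c-type genes at the upper ends of the alpha and gamma arrays (Pcdhac1, Pcdhac2, Pcdhgc3, Pcdhgc4 and Pcdhgc5) are used more widely among neurons than the others. Sox9 is a DNA-binding transcription factor that tubule cells switch on after injury. H3K4me3, trimethylation of lysine 4 of histone H3, marks active and poised promoters and served as the positive control antibody in the study.

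The cells came from kidney cortex and outer medulla of male mice of the genotype Sox9IRES-CreERT2/+:R26RtdT/+, aged 9 to 12 weeks and weighing 25 to 30 g. All mice had bilateral renal ischaemia reperfusion injury with tamoxifen given at the injury, and tdTomato-positive cells were sorted 10 days or 48 h later. Because Cre is driven from the Sox9 gene, the red label marks cells that expressed Sox9 around the tamoxifen dose and their descendants, whether or not they still expressed it at collection. No uninjured or Cre-negative group is among the samples, so every group shares the injury, the tamoxifen and 1 modified Sox9 allele. The groups with peak lists have 4 biological replicates each and are Sox9 at 10 days, Sox9 at 48 h, H3K4me3 at 10 days and H3K4me3 at 48 h. Each pellet was split for CUT&RUN, which releases the DNA bound by an antibody with a nuclease, so a Sox9 and an H3K4me3 list of the same number share their cells and their input. The times are taken from the sample titles, since another label gives day 10 for all samples. The Sox9 lists held 14793 to 85415 peaks at 10 days and 7706 to 26520 at 48 h. The H3K4me3 lists held 30936 to 88496 peaks at 10 days and 25811 to 37208 at 48 h, and replicate 1 of 10 days was the longest list of either antibody. Read depth is unknown, so the number of lists limits the precision.

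The labelled cell type was checked at the starts of marker genes, counted at both ends where the strand was not given. A Sox9 peak was present in 2 of 40 pairs of gene and list for kidney epithelium (5%), in 2 of 32 for proximal tubule (6.25%), in 4 of 32 for injured tubule (12.5%) and in 3 of 32 for neurons (9.38%). H3K4me3 was present in 17.5%, 9.38%, 3.13% and 21.9% of the same pairs. Of the other lists, endothelium was at 6.25% for Sox9 and 12.5% for H3K4me3, stroma at 16.7% and 12.5%, and immune cells at 0% and 4.17%. Over 17273 genes of other chromosomes the shares were 7.43% for Sox9 and 13.8% for H3K4me3. Havcr1 and Vcam1 of the injured tubule, Pax2 of the kidney epithelium, Hnf4a and Cubn of the proximal tubule, Tek of endothelium, Ptprc and Lyz2 of immune cells and Acta2 of stroma had a peak in 0 of 16 lists. These are peaks and not expression, so they cannot show which protocadherins the cells transcribed.

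H3K4me3 peaks were denser in the protocadherin cluster than in the rest of chromosome 18 in 8 of 8 lists. The cluster held 46, 15, 32 and 15 H3K4me3 peaks in the 10-day replicates 1 to 4, and 16, 17, 16 and 13 in the 48 h replicates. The log2 ratio of peaks per Mb, cluster over the rest of the chromosome with 0.5 added to each count, was 0.66, 0.58, 0.40 and 0.46 at 10 days, and 0.79, 0.74, 0.46 and 0.72 at 48 h. The ratio averaged 0.60 ± 0.15 (SD, n = 8), or 1.52-fold, and differed from 0 (exact sign-flip permutation over 8 lists, two-sided p = 0.0078, the smallest it can give, and 0.0156 adjusted over 2 antibodies).

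For Sox9 the same ratio was more variable, and whether it passed rests on the 0.5 added to each count. The cluster held 43, 4, 5 and 23 Sox9 peaks in the 10-day replicates, and 7, 8, 7 and 8 in the 48 h replicates, so 4 of the 8 Sox9 lists rest on 7 peaks or fewer. The log2 ratio was 0.64, -0.16, 0.13 and 0.89 at 10 days, and 1.63, -0.02, 0.46 and 0.53 at 48 h. It averaged 0.51 ± 0.57 (SD, n = 8), or 1.42-fold, and was above 0 in 6 of 8 lists (exact sign-flip permutation, two-sided p = 0.0469, also 0.0469 after adjustment). With nothing added it was 0.42 ± 0.60 (SD, n = 8), or 1.34-fold, above 0 in 5 of 8 lists, and did not pass (adjusted permutation p = 0.0938). The call also ended when replicate 1, 3 or 4 of either time was left out (0.35 to 0.56, adjusted permutation p = 0.0625 to 0.0938), against other autosomes and X (0.39, adjusted permutation p = 0.0781) and with 100000 bp more on either side (0.38, adjusted permutation p = 0.117).

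**Figure D1:**
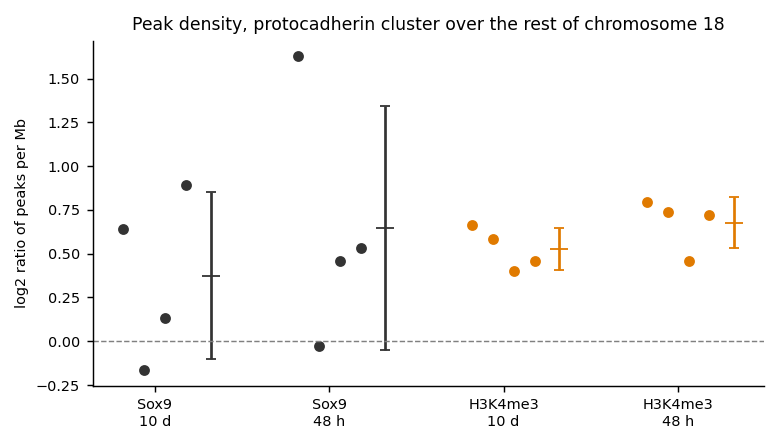
Log2 ratio of peaks per Mb in the protocadherin cluster over the rest of chromosome 18, 1 point per peak list, with 0.5 added to each count and mean and SD (n = 4) beside each group; the dashed line is a ratio of 1. All 8 H3K4me3 points lie between 0.40 and 0.79, while the Sox9 points run from -0.16 to 1.63 and 2 of 8 lie below the line, or 3 of 8 with nothing added to the counts.

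**Figure D2:**
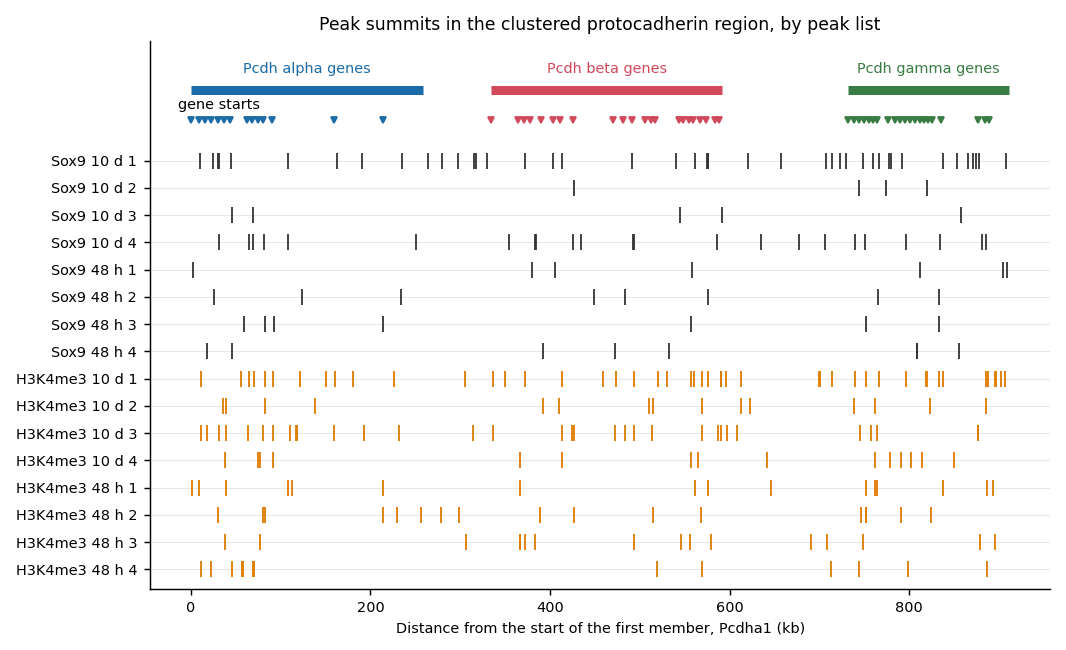
Summits of all 275 peaks along the cluster, 1 row per peak list, with distance from the start of Pcdha1 in kb; bars show the alpha, beta and gamma spans and triangles the 57 gene starts. Summits follow the rows of gene starts in all 3 arrays and are sparser between the arrays, and replicate 1 of 10 days has the most for either antibody.

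Many of the cluster's peaks lay at a similar place in the genes, about 2 kb above the gene starts, most clearly in the beta genes. Of the 105 Sox9 peaks 37, and of the 170 H3K4me3 peaks 79, had a summit 1500 to 2500 bp above a member's start, in windows that make up 6.25% of the cluster length. Both distances were chosen after the peaks were seen, so these shares are a description with no test. For Sox9 the share of cluster peaks in these windows was 27.9%, 50%, 40% and 26.1% in the 10-day replicates and 42.9%, 25%, 57.1% and 75% in the 48 h replicates. For H3K4me3 it was 43.5%, 46.7%, 43.75% and 60% in the 10-day replicates and 56.25%, 41.2%, 43.75% and 46.2% in the 48 h replicates. Every one of the 16 lists was thus at least at 25%. The windows held 2 to 12 peaks per Sox9 list and 6 to 20 per H3K4me3 list, so the Sox9 shares are coarse. The mean share was 43.0% ± 17.4 for Sox9 and 47.7% ± 6.76 for H3K4me3 (SD, n = 8 each). By time it was 36.0% ± 11.2 at 10 days and 50% ± 21.2 at 48 h for Sox9, and 48.5% ± 7.82 at 10 days and 46.8% ± 6.60 at 48 h for H3K4me3 (SD, n = 4 each).

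**Figure D3:**
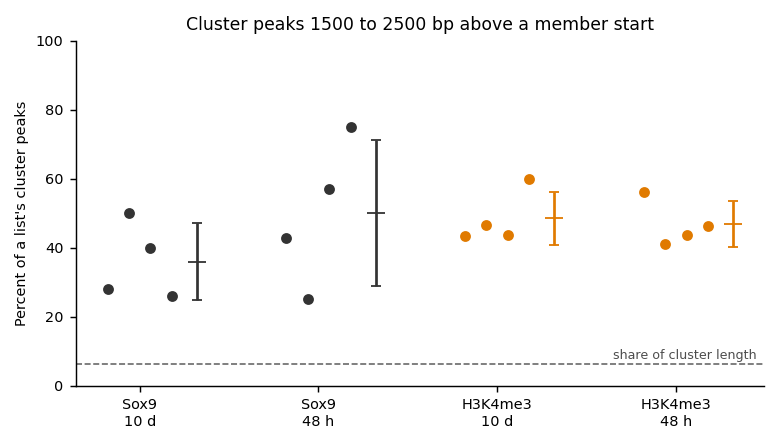
Percent of each list's cluster peaks whose summit lay 1500 to 2500 bp above a member's start, 1 point per list, with mean and SD (n = 4) beside each group; the dashed line at 6.25% is the share of the cluster length in these windows. Every list is at 25% or more, and the Sox9 lists spread more widely than the H3K4me3 lists. The Sox9 points rest on 2 to 12 peaks each in these windows and the H3K4me3 points on 6 to 20.

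Set against the peak density of the rest of chromosome 18, the windows 1500 to 2500 bp above member starts were 8.12-fold denser in Sox9 peaks and 10.9-fold denser in H3K4me3 peaks, over 8 lists together. The same windows downstream of the starts of 17273 genes on other chromosomes were 1.67-fold denser for Sox9 and 1.80-fold denser for H3K4me3 on that scale. From 0 to 500 bp the order was the other way round: members were at 3.07-fold for Sox9 and 5.54-fold for H3K4me3, while the other genes were at 7.07-fold and 8.66-fold. The arrays differed in this. For H3K4me3, beta genes were at 0-fold from 0 to 500 bp and 14.3-fold from 1500 to 2500 bp, alpha genes were at 10.1-fold and 10.7-fold, and gamma genes at 8.27-fold and 7.52-fold, so the beta genes alone had no H3K4me3 peak from 0 to 500 bp. For Sox9, beta genes were at 2.27-fold and 9.66-fold, alpha genes at 3.57-fold and 11.6-fold, and gamma genes at 3.57-fold and 4.17-fold. Gamma genes had 7 Sox9 peaks from 1500 to 2500 bp above the start and 8 from 2500 to 500 bp below it. Gamma starts lie as near as 4154 bp, so a summit counted below 1 start can lie about 2 kb above another. The 8 include a Sox9 summit 2476 bp above the Pcdhga10 start and those of 2 lists in the pseudogene Pcdhgb8. Outside the downstream windows, the cluster was at 0.993 times the density of the rest of the chromosome for Sox9 and 0.838 times for H3K4me3. The per-list log2 ratio outside the windows averaged -0.19 ± 0.73 for Sox9 and -0.21 ± 0.24 for H3K4me3 (SD, n = 8 each), and was above 0 in 3 and 1 lists. The windows were chosen from these same peaks, so taking them out was bound to lower the density of what was left. No such windows were taken out of the rest of the chromosome, so these ratios are a description with no test. Of the peaks with a summit 1000 to 3000 bp above a start, the median distance was 1889 bp in the alpha genes, 1970 bp in the beta genes and 2031 bp in the gamma genes. The beta genes themselves are 2340 to 5271 bp long, so in them this place is in the gene or just past its upper end. Exon ends of the alpha and gamma genes were not in the annotation used here.

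**Figure D4:**
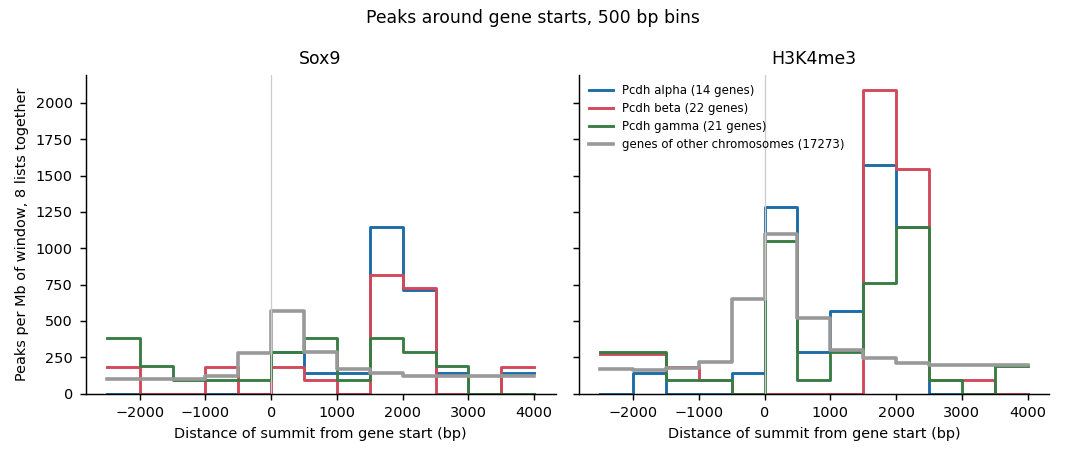
Peaks per Mb of window in 500 bp bins around gene starts, 8 lists together, for alpha, beta and gamma members and for 17273 genes of other chromosomes in grey. In the grey genes the highest bin is 0 to 500 bp for both antibodies, while the alpha and beta members are highest at 1500 to 2000 bp and the H3K4me3 peaks of gamma members at 2000 to 2500 bp. The Sox9 peaks of gamma members have no single highest bin, with 4 peaks each at 1500 to 2000 bp, at 500 to 1000 bp and at 2500 to 2000 bp below the start. Some summits below a gamma start also lie about 2 kb above the start of the copy before it.

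Counted by member, 47 of 57 had a peak of either antibody 1500 to 2500 bp above the start in at least 1 of 16 lists, where 25.6% of the genes of other chromosomes did. A Sox9 peak was there at 30 members (background 11.5%) and an H3K4me3 peak at 40 (background 17.7%). For Sox9, 18 members had one at 10 days (background 8.39%) and 14 at 48 h (background 3.92%). For H3K4me3, 35 had one at 10 days (background 12.4%) and 23 at 48 h (background 7.51%). Peaks recurred in at least 3 lists at 18 members, against 1.97% of the other genes. The 10 members with no peak there were Pcdhac1, Pcdhac2, Pcdhb12, Pcdhb16, Pcdhga1, Pcdhga2, Pcdhga7, Pcdhga8, Pcdhga11 and Pcdhgc5, so 3 of the 5 c-type genes were among them. As pairs of member and list, the share was 7.46% for Sox9, where the other genes had 1.65%, and 16.4% for H3K4me3, where they had 2.78%.

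Close to the starts, H3K4me3 lay less often at members than at the ends of other genes of chromosome 18, and the Sox9 difference did not pass. The backgrounds in this paragraph are a different reference, the shares of 17273 genes of other chromosomes with a peak at the start. Within 1000 bp of the start, 17 of 57 members had a Sox9 peak in at least 1 of 8 lists (background 41.1%) and 17 had an H3K4me3 peak (background 59.2%). Either antibody was there at 25 members (background 69.4%) and at 4 in 3 or more lists (background 27.1%), and 32 members had none in any list. By time, 13 members had a Sox9 peak at 10 days (background 29.8%) and 4 at 48 h (background 20.2%), and 11 had an H3K4me3 peak at 10 days (background 49.7%) and 10 at 48 h (background 30.2%). Per list, a Sox9 peak was at 3.73% ± 4.34 of members and at 5.13% ± 2.67 of the ends of 450 other chromosome 18 genes (SD, n = 8 each, difference -1.40 points, exact sign-flip permutation p = 0.195). An H3K4me3 peak was at 5.48% ± 1.98 of members and at 9.57% ± 5.51 of those ends (SD, n = 8 each). This difference of -4.09 points was negative in 8 of 8 lists (exact sign-flip permutation p = 0.0078, 0.0156 adjusted over 2 antibodies). Its size rests in part on 10-day replicate 1, at -14.3 points, without which it was -2.63 points (adjusted permutation p = 0.0313). Both ends were used for the other chromosome 18 genes because their strand was not given, so that reference does not hold starts alone.

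The size of the window decides this comparison. With 500 bp in place of 1000 bp the H3K4me3 difference was -1.92 points and did not pass (adjusted permutation p = 0.1875), and with 3000 bp, which takes in the windows about 2 kb above the starts, it was 10.2 points in the other direction (adjusted permutation p = 0.0156). Against the starts of the 17273 genes of other chromosomes, which have a known strand, the Sox9 difference was -3.71 points and passed (adjusted permutation p = 0.0313), and the H3K4me3 difference was -8.35 points (adjusted permutation p = 0.0156).

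Within the cluster, the higher density of peaks at starts than elsewhere did not pass after adjustment for either antibody. Of the cluster peaks, 16.2% of Sox9 and 15.3% of H3K4me3 lay within 1000 bp of a start, in 12.5% of the length. The per-list log2 ratio, starts over the rest of the cluster with 0.5 peaks added, was 0.52 ± 1.06 for Sox9 (SD, n = 8, exact sign-flip permutation p = 0.195) and 0.58 ± 0.51 for H3K4me3 (SD, n = 8, above 0 in 7 of 8 lists, exact sign-flip permutation p = 0.0313, 0.0625 adjusted over 2 antibodies). The 0.5 alone would put a list with no peak at 2.81, so it raises lists with few peaks. With nothing added the H3K4me3 ratio was 0.40 ± 0.54 (SD, n = 8, exact sign-flip permutation p = 0.0703), 2 Sox9 lists with no start peak had no value, and the lists together were at 0.44 for Sox9 and 0.34 for H3K4me3. Without H3K4me3 10-day replicate 1, the list with the lowest ratio (-0.43), the H3K4me3 ratio was 0.73 and passed (adjusted permutation p = 0.0313).

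Among the alpha genes, 8 of 14 had a peak within 1000 bp of the start in at least 1 list, where 69.4% of the genes of other chromosomes did. A peak 1500 to 2500 bp above the start was found at 12 (background 25.6%). Pcdha11, an ordinary alternate alpha gene (start 37010858), had start peaks in 3 lists. Its H3K4me3 peak of 10-day replicate 3 spanned 37010748 to 37011050 at a fold enrichment of 29.0 and 2 steps of height, and the other H3K4me3 peak was in 48 h replicate 2 (66.0-fold, 1 step). A Sox9 peak lay there in 10-day replicate 4 (44.4-fold, 1 step). Fold enrichment is the authors' value for each peak and cannot be compared between lists, and a step is the smallest peak height of a list. About 2 kb above the same start, Pcdha11 also had H3K4me3 peaks in 10-day replicates 1 and 2 and 48 h replicate 2, and a Sox9 peak of 2 steps in 48 h replicate 3.

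Pcdhac2, a c-type alpha gene, had start peaks in 3 lists, all at 48 h. They were H3K4me3 peaks in replicates 1 (6.11-fold) and 2 (29.7-fold) and a Sox9 peak in replicate 3 (37.7-fold), with summits 294 to 923 bp above the start. Its c-type neighbour Pcdhac1 had H3K4me3 peaks at the start in 2 lists at 10 days, and neither gene had any peak 1500 to 2500 bp above the start. The alpha genes Pcdha2 and Pcdha5 also had a start peak of 2 steps, both of H3K4me3 at 48 h. At Pcdha2 it lay in replicate 1, 202 bp above the start (40.4-fold), and at Pcdha5 in replicate 2, 490 bp above it (56.4-fold). Further into the same genes, Pcdha2 had peaks in 4 lists, of Sox9 in 10-day replicate 1 and of H3K4me3 in 10-day replicates 1 and 3 and 48 h replicate 4. Pcdha5 had Sox9 peaks alone there, in 10-day replicates 1 and 4.

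Among the beta genes, starts were nearly bare of H3K4me3 and the gene bodies were not. An H3K4me3 peak lay within 1000 bp of the start at 1 of 22 beta genes, Pcdhb8 (background 59.2%), and a Sox9 peak at 5 (background 41.1%), each in a single list. From 1500 to 2500 bp above the start, 20 of 22 beta genes had a peak in some list (background 25.6%). A Sox9 peak was there at 14 (background 11.5%) and an H3K4me3 peak at 17 (background 17.7%), and 10 had peaks in 3 or more lists (background 1.97%). Between the lowest and the highest beta coordinate, 20 Sox9 peaks lay in beta genes and 9 between them (69.0% in 29.5% of the length). For H3K4me3, 41 lay in the genes and 11 between them (78.8%). Peaks were denser in the genes than between them in 8 of 8 lists of each antibody. The windows 1500 to 2500 bp above beta starts held 17 Sox9 and 40 H3K4me3 peaks. The comparison of genes with the parts between them therefore largely restates those windows, which were chosen from these same peaks, and is no further test.

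The beta gene with peaks in the most lists was Pcdhb19, which was singled out after its values were seen. It had H3K4me3 peaks about 2 kb above the start in 10-day replicates 1, 2 and 3 and 48 h replicates 2 and 4, and no Sox9 peak. Of the 5 summits 4 lay within a short stretch, 2049 to 2065 bp above the start, and the other at 1641 bp. The 10-day replicate 1 peak, at 3 steps, had the most steps in the cluster. The height of a step differs between lists, so this does not rank it by height across lists. Pcdhb7 had such peaks in H3K4me3 10-day replicates 1, 3 and 4 (summits at 1946, 1959 and 2074 bp) and Sox9 10-day replicate 1 (1730 bp). Pcdhb20 had Sox9 peaks of 2 steps at both times, in 10-day replicate 1 (1640 bp) and 48 h replicate 2 (1832 bp), beside H3K4me3 peaks of 1 step in 10-day replicate 1 and 48 h replicate 1.

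Among the gamma genes, 12 of 21 had a start peak in some list (background 69.4%) and 15 had a peak 1500 to 2500 bp above the start (background 25.6%). In the latter window a Sox9 peak was at 6 (background 11.5%) and an H3K4me3 peak at 13 (background 17.7%). Pcdhga5 had start peaks in 3 lists, of Sox9 in 48 h replicate 2 (63.5-fold) and of H3K4me3 in 10-day replicate 3 (16.6-fold) and 48 h replicate 1 (10.2-fold), with summits 313 to 696 bp above the start. The c-type gene Pcdhgc4 also had 3, all at 10 days, of Sox9 in replicate 4 (56.3-fold) and of H3K4me3 in replicates 1 (25.6-fold) and 2 (71.4-fold). Those summits lay at 321, 339 and 348 bp above the start. Start peaks in 3 or more lists were found at 27.1% of the genes of other chromosomes. Pcdhgc4 also had peaks 1500 to 2500 bp above the start in 2 lists. Pcdhgb1, a b-type gamma gene, had start peaks in 2 lists and peaks further in in 4 lists. The latter were in H3K4me3 10-day replicate 1 and 48 h replicates 1 and 2 and in Sox9 48 h replicate 3, 1765 to 2133 bp above the start. The pseudogene Pcdhgb8 (37761801 to 37840489), which is not among the 57 genes, had peaks at the same distance, 1755 to 1995 bp, in 3 lists.

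**Figure D5:**
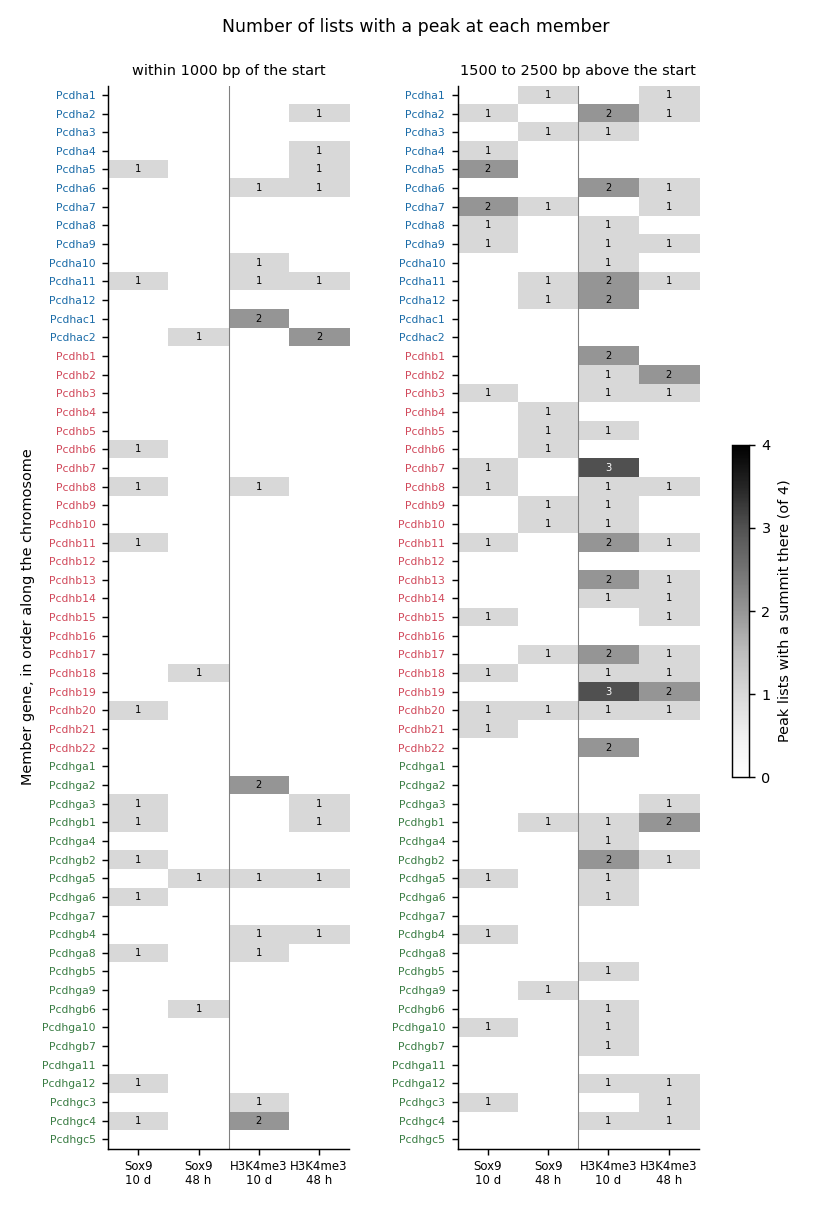
Number of lists (of 4 per antibody and time) with a summit within 1000 bp of each member's start, on the left, and 1500 to 2500 bp above it, on the right; members run down the page in chromosome order, with alpha names in blue, beta in red and gamma in green. The right panel is the fuller, with peaks at 47 members against 25 on the left, and the left panel has a single H3K4me3 entry among the 22 beta genes.

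Between the arrays, H3K4me3 differed in how often it lay at starts. Within 1000 bp of the start an H3K4me3 peak was at 10.7% ± 6.61 of alpha genes, 7.14% ± 3.60 of gamma genes and 0.568% ± 1.61 of beta genes per list (SD, n = 8 each). Alpha minus beta was 10.1 points, above 0 in 7 of 8 lists, and gamma minus beta was 6.57 points, above 0 in 8 of 8 (exact sign-flip permutation p = 0.0156 and 0.0078, both 0.0469 adjusted over 6 pairs). Both calls ended with windows of 500 or 3000 bp. Without any one H3K4me3 list other than 10-day replicate 2 the adjusted permutation p was 0.0938 for each (8.53 to 10.6 points and 5.47 to 6.83 points), but gamma minus beta was then at the smallest unadjusted p that 7 lists allow (0.0156), so for it this says nothing of stability. Alpha minus gamma was 3.57 points (adjusted permutation p = 0.384). For Sox9 the shares were 2.68% ± 3.70 of alpha, 5.36% ± 6.46 of gamma and 2.84% ± 4.82 of beta genes (SD, n = 8 each), and none of the pairs passed (adjusted permutation p = 0.375 to 1).

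Peak density over the whole spans gave no call between the arrays. Sox9 peaks averaged 12.95 ± 11.2 per Mb in alpha, 14.5 ± 11.8 in beta and 22.7 ± 21.3 in gamma (SD, n = 8 each). H3K4me3 peaks averaged 25.4 ± 14.2 per Mb in alpha, 25.2 ± 17.4 in beta and 31.6 ± 19.4 in gamma (SD, n = 8 each). The smallest p was for Sox9, gamma minus beta, at a log2 difference of 0.61 (7 of 8 lists above 0, exact sign-flip permutation p = 0.0391, 0.211 adjusted over 6 pairs). The parts between the arrays held fewer of the cluster's peaks than their share of its length. The alpha-beta gap, 8.22% of the cluster, held 5.71% of the Sox9 peaks, all 6 of them in 1 list, and 2.94% of the H3K4me3 peaks. The beta-gamma gap, 15.3% of the cluster, held 9.52% and 8.24%. Over 8 lists together, Sox9 peaks were at 79.9 per Mb in the alpha-beta gap and 71.8 in the beta-gamma gap, and at 80.0 in the rest of chromosome 18. H3K4me3 peaks were at 66.6 and 100 per Mb in the gaps and at 127 in the rest of the chromosome.

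Between 10 days and 48 h, cluster density and the share of member starts were tested, and neither passed for either antibody. The log2 density ratio for Sox9 was 0.37 ± 0.48 at 10 days and 0.65 ± 0.70 at 48 h (SD, n = 4 each, difference -0.27, exact permutation p = 0.6). For H3K4me3 it was 0.53 ± 0.12 at 10 days and 0.68 ± 0.15 at 48 h (SD, n = 4 each, difference -0.15, exact permutation p = 0.143, adjusted p = 0.286). A Sox9 peak was at 5.70% ± 5.62 of member starts at 10 days and 1.75% ± 1.43 at 48 h, and an H3K4me3 peak at 6.14% ± 2.26 at 10 days and 4.82% ± 1.68 at 48 h (SD, n = 4 each, exact permutation p = 0.4 and 0.571, both 0.571 adjusted over 2 antibodies). The share of starts does not allow for list length, and Sox9 lists averaged 39320 peaks at 10 days and 16760 at 48 h. H3K4me3 lists averaged 56545 and 31455 peaks. The part of list length in the share differences was not tested. With 4 lists against 4 the smallest p is 0.0286, and 0.0571 after adjustment where only 1 antibody reaches it. Without Sox9 48 h replicate 1, the list with the fewest peaks, the Sox9 density difference was 0.0539, in the other direction.

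Sox9 and H3K4me3 did not differ in the cluster beyond the spread of their lists. Sox9 minus H3K4me3 was -0.09 for the log2 density ratio (0.51 ± 0.57 and 0.60 ± 0.15, SD, n = 8 each, exact permutation p = 0.690) and -1.75 points for the share of member starts (exact permutation p = 0.376). At 500 bp the second difference was -2.63 points (exact permutation p = 0.0440) and at 3000 bp -13.2 points (exact permutation p = 0.0230), so the call depends on the window. Unlike the density ratio, this share does not allow for list length, and H3K4me3 lists averaged 44000 peaks where Sox9 lists averaged 28040. Within 1000 bp of the ends of other chromosome 18 genes the share was 9.57% for H3K4me3 and 5.13% for Sox9. The part of list length in the share difference was not tested. A miss does not show that the antibodies act alike, and each pair of lists shares an input.

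Most positions were seen in a single list. The 275 peaks merged into 224 regions, of which 190 (84.8%) had a peak in 1 list, 21 in 2 lists and 13 in 3 or more, with 4 at most. No such count is given here for the rest of chromosome 18, so these shares describe the cluster alone. Of the 13 recurrent regions 10 were centred 1500 to 2500 bp above a member's start. The 3 regions in 4 lists were in Pcdhb11 (37423187 to 37423568, 1 Sox9 and 3 H3K4me3 lists), Pcdhb19 (37498990 to 37499186, 4 H3K4me3 lists) and above the start of Pcdhgb1 (37681958 to 37682445, 1 Sox9 and 3 H3K4me3 lists). Regions in 3 lists lay the same way at Pcdha2 (36940790 to 36941214), Pcdhb2 (37296739 to 37296978), Pcdhb7 (37343552 to 37343858), Pcdhb8 (37356765 to 37357321), Pcdhb13 (37444226 to 37444751), Pcdhb17 (37486828 to 37487161) and Pcdhgb2 (37691566 to 37691937). One more, 37763479 to 37763874, lay in the pseudogene Pcdhgb8, and another, 37037835 to 37038187, lay 17781 bp above the start of Pcdha12. The last of the 13, 37815316 to 37815487, was centred 322 bp above the start of Pcdhgc4.

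Nearly all peaks of the cluster stood at the smallest height of their list. Of 105 Sox9 peaks 5 reached 2 steps (4.76%), and of 170 H3K4me3 peaks 12 did (7.06%), where the rest of chromosome 18 had 3.35% and 4.27%. Of these 17 peaks 13 lay 1500 to 2500 bp above a start, 3 at a start and 1 elsewhere. The 13 include all 5 of Sox9, at Pcdha11, Pcdhb11, Pcdhb20 (in 2 lists) and Pcdhgc3. The cluster's peaks ranked low in their lists by fold enrichment, with a median percentile of 24.0 ± 10.0 for Sox9 and 17.4 ± 7.33 for H3K4me3 (SD, n = 8 each).

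The local background was high in the downstream windows. Of the 275 cluster peaks 258 were of 1 step, and at equal height a lower fold means a higher local background. The background values therefore largely restate the low fold ranks. Solved from the authors' fold and p-value and set against the median peak of chromosome 18 in the same list, it had a median of 5.24 for Sox9 and 5.46 for H3K4me3 peaks in these windows. At the member starts it was 1.96 and 3.56, in other parts of the cluster 1.28 and 1.01, and at gene ends of the rest of chromosome 18 it was 4.32 and 4.61. The part of this background in the result was not tested. Members are close copies of each other, with starts as near as 4154 bp, and how reads that fit several copies were placed is not given in the sources used here, so the assignment of a peak to 1 member is uncertain.

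Genes outside the cluster with related roles were described by the share of pairs of gene and list with a start peak. For 17273 genes this was 7.43% for Sox9 and 13.8% for H3K4me3, and lists with genes of unknown strand, counted at both ends, have a wider window. The 11 delta protocadherins, which are related adhesion genes outside the cluster, had 7 of 88 pairs for Sox9 (7.95%) and 16 of 88 for H3K4me3 (18.2%). Pcdh1, counted at both ends, had peaks in 3 Sox9 and 5 H3K4me3 lists, Pcdh19 in 1 and 2, and Pcdh11x and Pcdh18 in 1 and 1 each. Of 22 regulators of the cluster, 16 had a peak in some list, where 69.4% of the 17273 genes did, with 13.1% of pairs for Sox9 and 21.0% for H3K4me3. Peaks recurred most at Mau2, a loader of cohesin (3 Sox9 and 5 H3K4me3 lists), at Ctcf, the insulator gene (2 and 4), at Pds5b, a cohesin regulator (3 and 3), and at Trim28, a corepressor (2 and 4). Rad21, Stag1, Stag2, Nipbl, Dnmt3a and Tet3 had none in 16 lists.

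Of 12 genes that act on the inner side of the protocadherins, such as kinases and actin regulators, 11 had a peak in some list (background 69.4%), several of them counted at both ends, with 9.38% of pairs for Sox9 and 21.9% for H3K4me3. They included Ptk2b, a focal adhesion family kinase (4 Sox9 and 2 H3K4me3 lists), and the WAVE actin complex genes Wasf1 (1 and 3), Abi1 (1 and 2) and Nckap1 (0 and 3). The 8 neighbours, counted at both ends, had 7.81% of pairs for Sox9 and 20.3% for H3K4me3. They included Slc25a2, a mitochondrial carrier (2 and 1), Taf7, of the general transcription machinery (1 and 2), Diaph1, an actin-nucleating formin (1 and 2), and Rell2 (0 and 3). The 57 members, counted at their starts alone, were at 3.73% for Sox9 and 5.48% for H3K4me3. These shares cannot be set directly against lists with genes counted at both ends.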

How the data were processed

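CUT&RUN peaks of Sox9 and H3K4me3 were deposited by the authors as 1 list per library (16 lists of 24 samples, the other 8 being inputs), and each names in its peaks, per the file headers, the input library used as its control. The tools named in the submitters' processing notes are MACS3, Bowtie, Bowtie2 and Partek 10, and the build is mm10. Read filters, the treatment of duplicates and of reads that fit several places, and the peak threshold are not given in the sources used here. The deposited fold of a peak divides the antibody signal by its local background, as computed by the authors. The deposited p-value and q-value are −log10 values of the authors' caller, and the deposited score column was not used. Peak heights in steps were solved from fold and p as multiples of the smallest height (59.8 to 507 between lists), which 92.5% to 97.8% of a list's peaks had; a boundary of 1.5 separated 1 step from more.

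Members were matched by symbol in the RefSeq table of GRCm38.p6, and a peak was placed by its summit. No strand was given for genes of chromosome 18. The lower coordinate was used as each member's start, because the alpha genes share their upper ends within 1240 bp and the gamma genes within 10 bp. For the other 450 genes of the chromosome both ends were used, which departs from the planned use of starts, and 3 read-through genes were left out. Densities are peaks per Mb of the cluster over those of the rest of chromosome 18, with 0.5 added to each count. Chromosome length was taken as the distance between the lowest and highest summits of all lists. Lists were tested against 0 by exact sign-flip permutation over 8 lists, and times by exact permutation of 4 against 4 lists, all two-sided. P-values were adjusted by the Benjamini-Hochberg method over 2 antibodies, or over 6 pairs of arrays (3 pairs for each antibody). P-values measure the spread between lists.

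Members, gene lists and tests were chosen with earlier results of these data known, and the window 1500 to 2500 bp above the starts after its peaks were seen. Named were members with start peaks in at least 3 lists or of 2 or more steps, up to 12 regions in at least 3 lists, and 4 genes of each companion list. Other members and regions named were chosen after their values were seen. Alternatives were windows of 500 and 3000 bp, any base of a peak, q filtering (−log10 of at least 5), 2 or more steps, other references and spans, nothing added to counts, a replicate block and leaving out each list. A pellet number in the titles pairs its Sox9 and H3K4me3 lists. Over bins of 100000 bp of chromosome 18 the same-pellet correlations of deviations were -0.05 to 0.05. Lists of 1 antibody shared at most 10 (Sox9) or 13 (H3K4me3) identical peaks, so each counts as 1 replicate. The calculations ran in Python 3.11.15 with SciPy 1.17.1, Numba 0.67.0, pandas 2.3.3, NumPy 2.4.6 and Matplotlib 3.10.9, and the procedures were tested on simulated data.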

Additional observations from a re-analysis of the deposited data

How the results depend on the processing

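The H3K4me3 density ratio, cluster over the rest of chromosome 18, kept its direction and its call under the alternatives run (0.57 to 0.63 without single lists, 0.56 with nothing added to the counts). The Sox9 ratio (0.51) did not, at 0.38 with 100000 bp more on either side, 0.39 against other autosomes and X, 0.42 with nothing added to the counts, an alternative chosen after seeing the data, and 0.35 to 0.61 without single lists. The other direction was found without Sox9 48 h replicate 1 for the Sox9 difference between times (0.0539, with -0.50 to 0.0539 over the lists left out) and without Sox9 10-day replicate 2 for Sox9 minus H3K4me3 (0.00522, with -0.25 to 0.00522).

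At member starts, 3000 bp in place of 1000 bp reversed the difference from other genes for Sox9 (4.02 points) and H3K4me3 (10.2), and alpha minus beta (2.68) and alpha minus gamma (0.89) for Sox9. It ended alpha minus beta (3.00) and gamma minus beta (1.81) for H3K4me3, and gave calls to starts over the rest of the cluster (2.01 for Sox9, 2.36 for H3K4me3) and to Sox9 minus H3K4me3 (-13.2). At 500 bp the values were -1.92 for the H3K4me3 difference, 8.93 for alpha minus beta and 5.95 for gamma minus beta of H3K4me3, all of which lost the call, 0.65 for alpha minus beta of Sox9, reversed, and 1.37 for H3K4me3 starts over the rest and -2.63 for Sox9 minus H3K4me3, both gaining it. Against starts on other autosomes and X the Sox9 difference was -3.71. Without single lists the start differences from other genes were -2.02 to -0.96 for Sox9 and -4.53 to -2.63 for H3K4me3. Alpha minus beta of H3K4me3 was then 8.53 to 11.6, gamma minus beta 5.47 to 6.83, starts over the rest of the cluster 0.49 to 0.73 for H3K4me3, alpha minus beta of Sox9 -1.21 to 0.74, and alpha minus beta density of H3K4me3 -0.13 to 0.35.

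With 2 or more steps, few peaks were left (5 of Sox9 and 12 of H3K4me3) and the 0.5 added to each count largely sets the ratios, so they bear on no result. Cluster density was then at 2.07 for Sox9 and 1.79 for H3K4me3. Starts over the rest were at 1.92 for Sox9, although 0 of its 5 peaks lay at a start, and 2.12 for H3K4me3, Sox9 minus H3K4me3 density at 0.28, and H3K4me3 density at -0.41 for alpha minus beta and -0.0894 for gamma minus beta. The H3K4me3 start values were -0.90 points against other genes, -0.44 between times, 2.68 for alpha minus beta and 0 for gamma minus beta. Peaks 1500 to 2500 bp above starts were 100% of these peaks for Sox9 (4 lists) and 63.1% for H3K4me3 (7 lists), and 38.4% to 45.6% and 45.9% to 48.6% of all peaks without single lists.

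With the replicate block, pairing Sox9 and H3K4me3 of a pellet, the density difference was -0.09 and the start difference -1.75 points (exact sign-flip permutation p = 0.664 and 0.367), and no call changed. Numbers shared by the times are not stated to pair mice. Their lists' correlations were -0.06 to -0.01, 0 of 4 correlated best with its own number for either antibody, and the block over them changed no call. Few peaks per list, at least 4 of Sox9, limit every comparison of members.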
